A study of Homo sapiens with 16 samples.

Results

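The genes described here are the insulin receptor INSR, the insulin receptor substrates IRS1 and IRS2, and 7 genes known as targets of FOXO transcription factors: CCNG2, SESN1, SESN3, BCL6, CITED2, TXNIP and YPEL3. These genes, like the gene lists used below, were fixed with earlier results of these data known. Their shares set beside all probes are therefore a description and not independent support. Probes were taken by symbol, as every probe of the table whose gene symbol is one of these 10, out of 18631 symbols on the array. This gave 11 probes, since BCL6 has a pair of probes and each of the others has 1. SUM225 cells come from a breast cancer with HER2 amplification and over expression, and were treated with 1 µM CP724,714, a small molecule inhibitor of HER2 kinase activity. RNA was taken every 3 h from 0 h to 45 h from parallel cultures and hybridised to 1 Illumina bead array each, so that 16 time points gave 16 arrays. All arrays carried the same line and the same treatment, no time point had a replicate, and no untreated course was analysed here. The labels describe a medium with serum, insulin and hydrocortisone, while the study's methods describe SUM225 cells in serum-free medium without insulin, so whether insulin was present is not settled. For its other time courses the study's methods describe a medium change at the start of treatment, and a response to fresh medium cannot be told apart from a response to the inhibitor in these data.

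Insulin binds its receptor, a tyrosine kinase, which phosphorylates IRS1 and IRS2, and these docking proteins recruit PI3K. PI3K activates AKT, which phosphorylates FOXO factors and keeps them out of the nucleus. HER2, with its partner ERBB3, activates the same kinases in breast cancer cells. When AKT activity falls, FOXO factors enter the nucleus and raise the transcription of genes that slow the cell cycle, limit nutrient use and restore upstream signalling, and INSR and IRS2 are themselves known FOXO targets.

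The median signal of the arrays lay between 242 and 384, and 57.5% to 61.5% of probes were detected, meaning a detection p-value under 0.05. Signals were corrected for background, quantile normalized and put on the log2 scale, and a value below is such a normalized log2 value unless said otherwise. Levels of different probes are not comparable on this platform. Of the 11 probes, 10 passed the filter of detection on at least 3 arrays, 1 for each gene. The second BCL6 probe, ILMN_1746053, was detected on 0 arrays, with signals between 176 and 220, and was not tested. All 7 luminal epithelial markers were detected on 16 arrays, with ERBB2, which encodes HER2, at a linear change of 0.015 ± 0.040 log2 units (SE), while KRT8 fell by 0.68 ± 0.10 and KRT18 by 0.74 ± 0.10. Of the fibroblast, leukocyte and endothelial markers, COL3A1, DCN and PTPRC were detected on 0 arrays, CD3E and CDH5 on 1, COL1A1 and COL1A2 on 5, VWF on 13, and LYZ and PECAM1 on 16. VWF rose by 2.51 ± 0.28 log2 units, and its part in any result was not tested. The raw signals of 9 of the 10 tested genes peaked on the 27 h array, which also had the highest median, whereas 0 of the 10 had their highest normalized value there.

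The first question was how many of these genes changed with time in the inhibitor. By limma, 7 of the 10 depended on time at an adjusted p under 0.05, beside 51.3% of all 16110 probes tested. BCL6, YPEL3, TXNIP, IRS2, CITED2 and CCNG2 rose in the linear term of the fitted cubic course, which is 6 of 10 (60.0%), where 26% of all probes rose. IRS1 fell, which is 1 of 10, where 21.7% of all probes fell. The median linear change over 45 h was 0.80 log2 units for the 10 genes and 0.05 for all probes. BCL6, CITED2, TXNIP and YPEL3, or 4 of 10, departed from a straight line, beside 19.3% of all probes. Because RNA was measured in bulk, fewer cells that express a gene and less of its RNA per cell cannot be told apart.

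For 4 of the 10 genes much of the difference from 0 h was present on the first treated array. At 3 h, CCNG2, CITED2, BCL6 and TXNIP were already 1.7-fold or more above the 0 h array, and 0 of the 10 genes were as far below it. Over all probes, 1.82% were above and 2.43% below at that time. At 45 h, 6 of the 10 were above, namely CCNG2, BCL6, TXNIP, YPEL3, CITED2 and INSR, and IRS1 was below, beside 13.7% and 13.5% of all probes. No test stands behind these counts, since each sets 1 array against 1 other, and all of them share the 0 h array. The probes of INSR and IRS1 were dim. For INSR the raw signal was 231 at 0 h and 280 at 45 h, and its normalized value at 42 h was 0.998-fold of 0 h. Without background correction IRS1 was less than 1.7-fold below 0 h at 45 h.

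**Figure D1:**
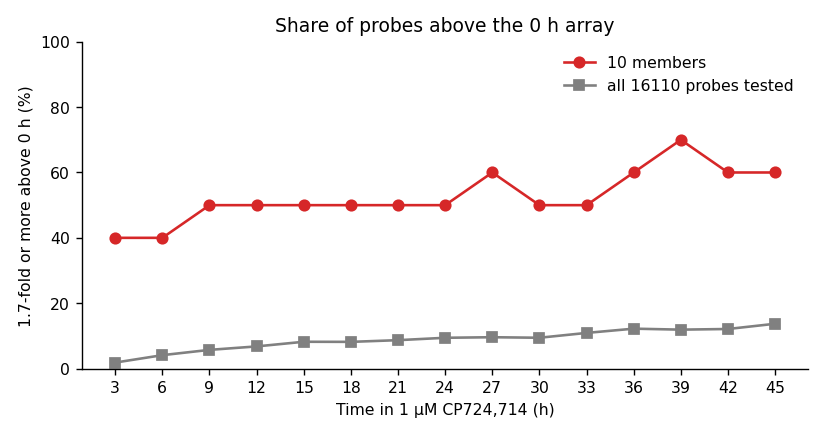
The percentage of probes at 1.7-fold or more above the 0 h array is plotted against hours in CP724,714, for the 10 genes described here (red circles) and for all 16110 probes tested (grey squares). The 10 genes start at 4 of 10 at 3 h and reach 7 of 10 at 39 h, while all probes go from 1.82% to 13.7%.

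The linear trends depend on how the order of the arrays is treated. In an earlier analysis of these data the arrays were seen to fall into sets of 12 h, with 4 arrays each, and to shift between 21 and 24 h, although the labels name no batch. With a step between 21 and 24 h in the fit, 2 of the 10 genes rose, BCL6 by 1.34 and TXNIP by 1.18 log2 units, beside 10% of all probes. Another fit took the 12 h set as a factor with a straight line in hours in place of the cubic. The change it gives, also for pairs of genes below, is the slope within sets that each span 9 h, scaled to 45 h. Such a change is an extrapolation and can exceed the range of the values. In this fit 0 of the 10 rose or fell at an adjusted p under 0.05 in limma, beside 0.422% of all probes rising and 0.478% falling. At an unadjusted p under 0.05 this fit had 3 of the 10 rising and 1 falling, beside 7.67% and 6.99% of all probes. The sets follow time, and a change over time cannot be told apart from a shift between sets.

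**Figure D2:**
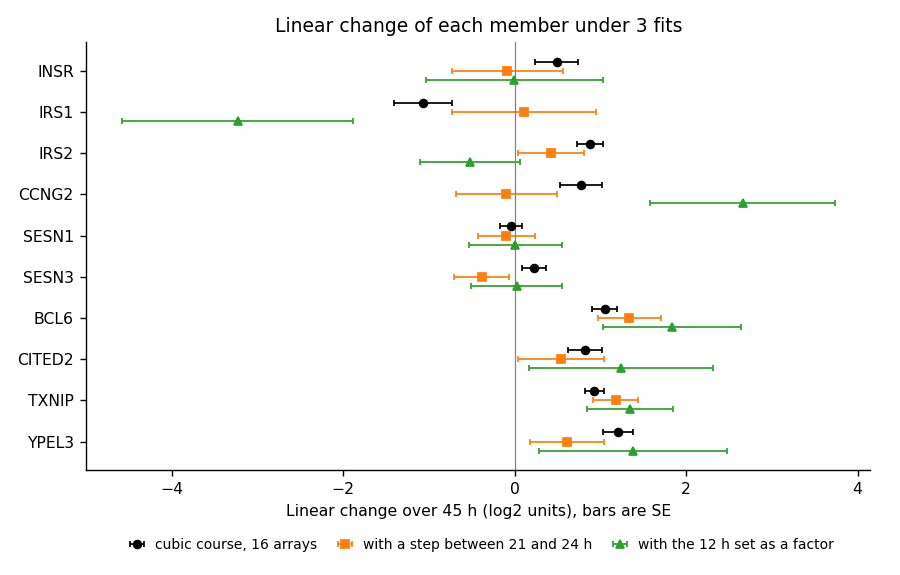
The linear change over 45 h in log2 units (x axis, bars are SE) is drawn for each of the 10 genes under the cubic course over 16 arrays (black circles), with a step between 21 and 24 h (orange squares) and as a straight line with the 12 h set as a factor (green triangles). The green triangles are slopes within the 12 h sets, scaled to 45 h. BCL6, TXNIP, CITED2 and YPEL3 lie above 0 under all 3 fits, while CCNG2, IRS1, IRS2, INSR, SESN1 and SESN3 do not keep their side in every fit.

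Promoter windows show what surrounds the start sites of these genes. RefSeq windows of 300 bases, from 250 before to 50 after an annotated start, were available for all 10 genes (16 windows, build GRCh38.p14) and were searched on both strands. Of 35116 windows of all genes, 3.42% held the forkhead element GTAAACA, 4.92% held CAAAACA, 7.26% held the E-box CACGTG and 6.78% held CACGAG, part of the elements bound by MLX and its partners. GTAAACA was found in TXNIP and YPEL3, CAAAACA in IRS2, CACGTG in IRS1, CCNG2 and CITED2, and CACGAG in TXNIP and BCL6. The windows with a forkhead element are printed here with that of CCNG2, which had the largest change at 3 h. All run from 5′ to 3′ along the gene, and capitals mark each match on either strand. TXNIP (chr1:145996530-145996829, minus strand) holds GTAAACA 124 bases before the start and CACGAG at 88 and 77 bases before it. YPEL3 (chr16:30096164-30096463, minus strand) holds GTAAACA at the start itself. IRS2 (chr13:109786534-109786833, minus strand) holds CAAAACA, read as TGTTTTG, 40 bases before the start. CCNG2 (chr4:77156957-77157256, plus strand) holds CACGTG 30 bases before the start. A match describes the letters in the window and says nothing of binding in these cells.
TXNIP: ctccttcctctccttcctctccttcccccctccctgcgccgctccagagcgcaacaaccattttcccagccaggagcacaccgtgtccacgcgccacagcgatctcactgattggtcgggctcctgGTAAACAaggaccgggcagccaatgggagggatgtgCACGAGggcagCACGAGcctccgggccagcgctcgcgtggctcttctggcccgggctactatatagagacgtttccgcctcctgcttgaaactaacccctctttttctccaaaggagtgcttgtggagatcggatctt
YPEL3: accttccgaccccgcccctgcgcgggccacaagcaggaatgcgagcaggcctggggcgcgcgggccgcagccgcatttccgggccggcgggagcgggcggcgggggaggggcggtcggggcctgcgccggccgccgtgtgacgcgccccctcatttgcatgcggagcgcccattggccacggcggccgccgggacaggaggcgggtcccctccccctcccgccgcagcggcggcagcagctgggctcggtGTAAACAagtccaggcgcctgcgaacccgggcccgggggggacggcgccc
IRS2: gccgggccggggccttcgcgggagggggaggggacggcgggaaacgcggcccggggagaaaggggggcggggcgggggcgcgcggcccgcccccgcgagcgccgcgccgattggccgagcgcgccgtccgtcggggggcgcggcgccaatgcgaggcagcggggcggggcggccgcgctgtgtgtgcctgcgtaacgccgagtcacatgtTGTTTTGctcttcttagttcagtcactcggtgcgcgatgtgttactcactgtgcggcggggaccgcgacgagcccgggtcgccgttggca
CCNG2: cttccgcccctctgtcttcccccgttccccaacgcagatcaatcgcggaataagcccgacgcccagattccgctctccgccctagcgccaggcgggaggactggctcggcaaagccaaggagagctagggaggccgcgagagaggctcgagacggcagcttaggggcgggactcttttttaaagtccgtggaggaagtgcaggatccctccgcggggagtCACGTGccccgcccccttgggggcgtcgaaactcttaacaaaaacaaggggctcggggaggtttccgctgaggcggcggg

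INSR, the receptor itself, had no trend past the threshold. Its probe, ILMN_1670918, was dim, with signals between 226 and 368, and was detected on all 16 arrays. The value was 6.17 at 0 h, 6.50, 6.81 and 6.30 at 3, 6 and 9 h, 6.23, 6.50, 6.36 and 6.05 from 12 to 21 h, 6.28, 6.80, 6.65 and 6.40 from 24 to 33 h, and 6.87, 7.15, 6.17 and 7.11 from 36 to 45 h. The lowest value was at 21 h and the highest at 39 h, and neighbouring late arrays differed by 0.94 log2 units between 42 and 45 h. The linear change was 0.49 ± 0.25 log2 units (SE, n = 16 arrays, adjusted p = 0.123 by limma). Without the 42 h array it was 0.69 with an adjusted p of 0.0203, so that leaving out 1 array brings it past the threshold. It was 0.19 without background correction (adjusted p = 0.112) and 0.15 with array weights (adjusted p = 0.69). With the step between 21 and 24 h it was −0.088 (adjusted p = 0.947), and with the 12 h set as a factor −0.0024.

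IRS1, the first docking protein of the receptor, fell. The value of its probe, ILMN_1759232, was 7.54 at 0 h, 7.17, 6.64 and 6.06 at 3, 6 and 9 h, 7.31, 6.50, 6.90 and 6.22 from 12 to 21 h, 5.85, 6.49, 5.73 and 6.25 from 24 to 33 h, and 5.92, 6.87, 6.55 and 5.62 from 36 to 45 h. The 0 h array held the highest value of the course and the 45 h array the lowest, and 12 h held the second highest. The linear change was −1.07 ± 0.34 log2 units (adjusted p = 0.0146 by limma). The probe was dim, with signals between 206 and 336, and was detected on 11 arrays and not at 9, 24, 30, 36 and 45 h. On those arrays only an upper bound is known, although the fit takes the measured value, which lies below that bound. Set to the bound, the lowest value among the probes detected on that array, IRS1 was at least 2.59-fold lower than at 0 h at 9 h. It was at least 2.88-fold lower at 36 h and at least 2.45-fold lower at 45 h. These folds hold on the background-corrected scale only, since the raw signal was 336 at 0 h and 206 at 45 h. Without background correction IRS1 was less than 1.7-fold below 0 h at 45 h. Without background correction the linear change was −0.41 (adjusted p = 0.011), and without the 0 h array it was −0.84 and not past the threshold (adjusted p = 0.0837). With the step between 21 and 24 h it was 0.11 (adjusted p = 0.949 by limma), and with the 12 h set as a factor −3.23 (adjusted p = 0.266 by limma). The last of these is scaled up from the slope within sets and exceeds the observed range of 1.92 log2 units.

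IRS2, the second docking protein and a known FOXO target, rose late. The value of its probe, ILMN_2083469, was 10.36 at 0 h, 10.77, 10.47 and 10.47 at 3, 6 and 9 h, 10.59, 10.90, 10.61 and 10.59 from 12 to 21 h, 10.93, 11.40, 10.92 and 10.98 from 24 to 33 h, and 11.24, 11.51, 11.13 and 11.10 from 36 to 45 h. Every later array lay above the 0 h array, and 27 and 39 h stood highest. IRS2 first reached 1.7-fold at 27 h, was past it on 4 of the later arrays, and was at most 2.21-fold above 0 h. The linear change was 0.88 ± 0.16 log2 units (adjusted p = 0.000107 by limma), with no departure from a straight line past the threshold (adjusted p = 0.531). The rise lay between the 12 h sets rather than within them: the set means were 10.52 ± 0.18, 10.67 ± 0.15, 11.06 ± 0.23 and 11.25 ± 0.19 (SD, n = 4), while the last array of a set minus its first was between −0.14 and 0.11. With the step in the fit the linear change was 0.43 (adjusted p = 0.482), and with the 12 h set as a factor −0.52 (adjusted p = 0.739).

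**Figure D3:**
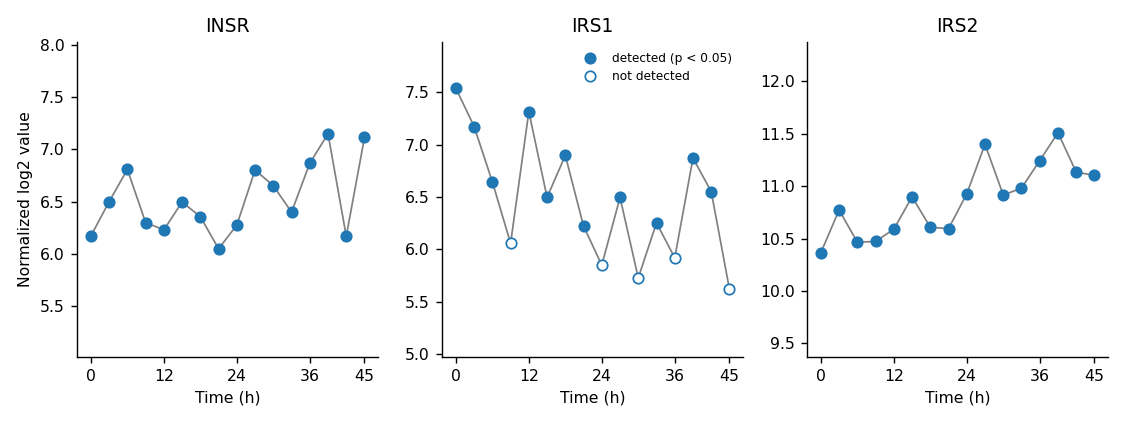
Normalized log2 values of INSR, IRS1 and IRS2 (y axis, the same span in each panel) are plotted against hours in CP724,714, with 1 array per point, filled where the probe was detected and open where it was not. IRS1 starts at its highest value, 7.54, and is not detected on 5 arrays, IRS2 goes from 10.36 to a highest value of 11.51 at 39 h, and INSR varies between 6.05 and 7.15.

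Whether the substrates moved apart was tested on the difference of their values within each array, which cancels what an array does to both probes alike. On the 5 arrays where IRS1 was not detected its measured value entered these differences, although only an upper bound is known there. IRS2 minus IRS1 grew by 1.95 ± 0.38 log2 units over 45 h (Pearson r = 0.809 with hours, two-sided permutation p = 0.00021, adjusted p = 0.00084 over 4 pairs, n = 16). Spearman's rho was 0.809 (adjusted permutation p = 0.00112), and without the 0 and 45 h arrays r was 0.711 (permutation p = 0.00513, n = 14). With the step between 21 and 24 h the difference was 1.09 (permutation test, adjusted p = 0.59), and with the 12 h set as a factor 2.72 (adjusted p = 0.261, permutation test). With IRS1 set to its bound on those 5 arrays, a setting chosen after seeing the data, the growth was 1.69 ± 0.34 (r = 0.801, adjusted permutation p = 0.00068), and without background correction it was 1.22 ± 0.18 (adjusted permutation p = 0.00012). INSR minus IRS1 grew by 1.56 ± 0.47 (r = 0.662, permutation p = 0.00511, adjusted p = 0.0102; rho = 0.626, adjusted permutation p = 0.0214). Without the first and last arrays together the growth was 0.92 ± 0.53 (r = 0.445, permutation p = 0.113, n = 14). With any single array left out, the growth of INSR minus IRS1 stayed past the threshold, at 1.27 to 1.95. It was 1.30 ± 0.40 with IRS1 at its bound (adjusted permutation p = 0.0105) and 0.60 ± 0.17 without background correction (adjusted permutation p = 0.00467). The step gave 0.90 (permutation test, adjusted p = 0.59) and the 12 h set as a factor 3.23 (permutation test, adjusted p = 0.261), both short of the threshold. INSR minus IRS2 changed by −0.39 ± 0.23 (r = −0.416, permutation p = 0.108, adjusted p = 0.121; rho = −0.409, adjusted permutation p = 0.133), and without the first and last arrays r was −0.641 (permutation p = 0.00903, n = 14). These values are correlated in time, and the permutation treats the arrays as exchangeable.

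CCNG2, an unconventional cyclin that slows the cell cycle, had the largest change at 3 h. Its probe, ILMN_2228732, had a value of 9.23 at 0 h, 10.86, 10.84 and 11.02 at 3, 6 and 9 h, 10.32, 10.67, 10.59 and 10.65 from 12 to 21 h, 10.72, 10.996, 10.96 and 10.67 from 24 to 33 h, and 10.83, 10.99, 10.90 and 11.19 from 36 to 45 h. The 0 h array stood alone at the bottom, more than 1 log2 unit below each of the 15 later arrays. CCNG2 was 3.10-fold above 0 h at 3 h, which was 82.9% of its largest rise on the log2 scale, and that rise was 3.91-fold at 45 h. Its linear change was 0.78 ± 0.24 log2 units (adjusted p = 0.0128 by limma). It was 0.30 without the 0 h array (adjusted p = 0.115) and 0.41 with arrays weighted by their quality (adjusted p = 0.0997), both short of the threshold. With the step it was −0.10 (adjusted p = 0.934 by limma) and with the 12 h set as a factor 2.66 (adjusted p = 0.247 by limma). The last of these is scaled up from the slope within sets and exceeds the observed range of 1.97 log2 units.

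CITED2, a transcriptional co-regulator that binds CBP and p300, rose as early. Its probe, ILMN_1663092, stood at 11.07 at 0 h, 12.45, 12.37 and 12.53 at 3, 6 and 9 h, 12.44, 12.33, 12.70 and 12.73 from 12 to 21 h, 12.82, 12.90, 12.82 and 12.84 from 24 to 33 h, and 12.91, 12.91, 12.82 and 12.19 from 36 to 45 h. All 15 later arrays were 1.7-fold or more above 0 h, with 2.62-fold at 3 h and 3.60-fold at the highest. From 42 to 45 h the value fell back by 0.63 log2 units, to below every array from 3 h on. The linear change was 0.82 ± 0.20 log2 units (adjusted p = 0.00188 by limma), with a departure from linearity (adjusted p = 0.0133). Without the 0 h array the linear change was 0.36 and kept its call, with the step 0.54 (adjusted p = 0.493), and with the 12 h set as a factor 1.24 (adjusted p = 0.641).

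BCL6, a transcriptional repressor, was among the brightest of these probes, with signals from 7418 to 34493. The value of its tested probe, ILMN_1737314, was 12.86 at 0 h, 14.05, 13.86 and 14.21 at 3, 6 and 9 h, 14.25, 14.42, 14.59 and 14.54 from 12 to 21 h, 14.39, 14.53, 14.49 and 14.68 from 24 to 33 h, and 14.71, 14.59, 14.76 and 14.37 from 36 to 45 h. The 0 h array was the lowest, and all 15 later arrays were 1.7-fold or more above it, with 2.29-fold at 3 h and 3.75-fold at 42 h. BCL6 had a linear change of 1.05 ± 0.14 log2 units (adjusted p = 6.48e-06 by limma), with a departure from a straight line (adjusted p = 0.00254). It was 0.64 without the 0 h array and kept its call. BCL6 rose with the step in the fit (1.34, adjusted p = 0.0142), while with the 12 h set as a factor the change was 1.84 (adjusted p = 0.297).

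TXNIP, which binds thioredoxin and limits glucose uptake, had the smallest spread around its course among the rising genes. Its probe, ILMN_1697448, gave 12.46 at 0 h, 13.26, 12.96 and 13.24 at 3, 6 and 9 h, 13.55, 13.53, 13.67 and 13.71 from 12 to 21 h, 13.56, 13.62, 13.72 and 13.77 from 24 to 33 h, and 13.79, 13.75, 13.66 and 13.87 from 36 to 45 h. TXNIP was 1.74-fold above 0 h at 3 h, below 1.7-fold at 6 h, and past it on all arrays from 9 h on, so that 14 of the 15 later arrays were past it. Its highest value, 2.66-fold above 0 h, was on the last array. TXNIP had a linear change of 0.93 ± 0.11 log2 units (adjusted p = 6.69e-07 by limma), and the residual SD around the course was 0.14. The rise passed with the step (1.18, adjusted p = 0.00406), and with the 12 h set as a factor the change was 1.34 (adjusted p = 0.215).

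YPEL3, a small zinc-binding protein that restrains growth, rose later than these. The value of its probe, ILMN_1791147, was 11.75 at 0 h, 11.96, 12.86 and 13.33 at 3, 6 and 9 h, 13.24, 13.21, 13.07 and 13.23 from 12 to 21 h, 13.56, 13.64, 13.66 and 13.58 from 24 to 33 h, and 13.48, 13.64, 13.57 and 12.88 from 36 to 45 h. It was 1.16-fold above 0 h at 3 h, 11.1% of its largest rise on the log2 scale, and 2.99-fold at 9 h. From 6 h on all 14 arrays were past 1.7-fold, with 3.78-fold at 30 h. From 42 to 45 h the value fell back by 0.69 log2 units. YPEL3 had a linear change of 1.21 ± 0.18 log2 units, the largest of the 10 genes under the cubic course (adjusted p = 1.5e-05 by limma), with a departure from a straight line (adjusted p = 0.00104). With the step it was 0.61 (adjusted p = 0.358) and with the 12 h set as a factor 1.38 (adjusted p = 0.602).

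**Figure D4:**
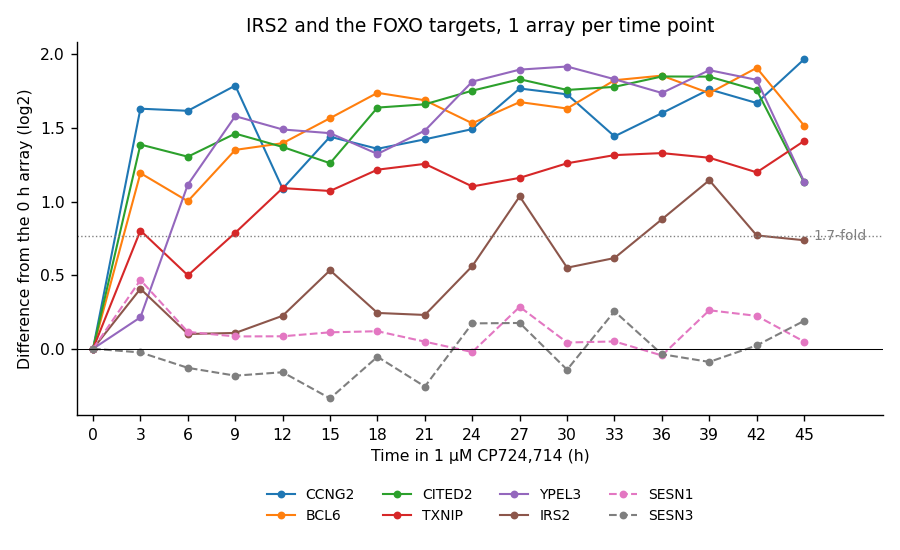
The difference from the 0 h array in log2 units is plotted against hours in CP724,714 for the 8 genes detected on all 16 arrays other than INSR, each from its own 0 h value, with 1 array per point and the dotted line at 1.7-fold. CCNG2, CITED2, BCL6 and TXNIP are past the line at 3 h and YPEL3 at 6 h, IRS2 first at 27 h, and the dashed courses of SESN1 and SESN3 stay under it.

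The sestrins SESN1 and SESN3, stress-induced proteins that restrain mTORC1, had no trend past the threshold. SESN1 (ILMN_1800626) lay between 9.01 and 9.52, with its highest value at 3 h, where it was 1.38-fold above 0 h. SESN3 (ILMN_1694027) lay between 8.55 and 9.14, and its largest rise over 0 h was 1.19-fold. Neither reached 1.7-fold at any hour. The linear changes were −0.05 ± 0.13 for SESN1 (adjusted p = 0.788) and 0.23 ± 0.14 for SESN3 (adjusted p = 0.185), with residual SDs of 0.14 and 0.16. SESN3 minus SESN1 changed by 0.27 ± 0.16 log2 units over 45 h (r = 0.405, permutation p = 0.121, adjusted p = 0.121; rho = 0.394, adjusted permutation p = 0.133). Without the first and last arrays r was 0.454 (permutation p = 0.104, n = 14). SESN2, their paralog, was detected on 3 arrays and had a linear change of −0.27 ± 0.32.

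The timing differed among the rising genes. By 3 h CITED2 had reached 75.0%, BCL6 62.5% and TXNIP 56.9% of their largest rise on the log2 scale, while IRS2 had reached 35.6%. By 9 h CCNG2 stood at 90.9%, YPEL3 at 82.4% and IRS2 at 9.37%. Within the first 12 h set the last array exceeded the first by 1.79 for CCNG2, 1.58 for YPEL3, 1.46 for CITED2, 1.35 for BCL6 and 0.79 for TXNIP. In the 3 later sets this difference lay between −0.72 and 0.37 for the same 5 genes. On the last array CITED2, YPEL3 and BCL6 were lower than at 42 h, BCL6 by −0.39 log2 units, while TXNIP was 0.21 and CCNG2 0.30 higher.

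Likeness of the courses is given as Pearson r over the 16 arrays, which share the array and the order in time, with no test. Among CCNG2, BCL6, CITED2, TXNIP and YPEL3, grouped after their values were seen, r lay between 0.585 and 0.939 over 10 pairs, with BCL6 and TXNIP the most alike and BCL6 and CITED2 at 0.919. With each 12 h set centred on its own mean the range was 0.37 to 0.931. Centring leaves in place the low 0 h array of the first set, which all 5 genes share. In that set their SDs were 0.38 (TXNIP) to 0.84 (CCNG2), against at most 0.35 in the later sets. How much of the likeness rests on that array was not tested. IRS1 against these 5 lay between −0.64 and −0.481, IRS2 between 0.544 and 0.661, and SESN3 between 0.0616 and 0.166. After centring the range was −0.548 to −0.245 for IRS1 and 0.0614 to 0.326 for IRS2, and it turned negative for SESN3, at −0.543 to −0.0955.

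The genes most like each member, up to 3 for each, were the following, with each of the 13108 genes tested represented by its brightest probe. CYP1A1, a target of the aryl hydrocarbon receptor, was nearest to TXNIP (r = 0.966), ahead of RSBN1 and MYLIP, and was level with EFNA1 for BCL6 (r = 0.946), followed by BTG1. CYP1A1 had a linear change of 2.86 ± 0.24 log2 units. BTG1, an antiproliferative gene, was nearest to CITED2 (r = 0.919), with BCL6 itself and GRB7, an adaptor of HER2. Among the genes nearest to CCNG2 were FLJ20152 (r = 0.941) and FBXO32 (r = 0.928), a ubiquitin ligase subunit known as a FOXO target. YPEL3 was most like CALCOCO1 (r = 0.963), CSNK2A2 and MCCC1, and IRS2 most like HHAT (r = 0.942), SH3MD2, now SH3RF1, and RTN4. The nearest to IRS1 were CD276 (r = 0.879), ASPHD2 and LMCD1, all with a negative linear change. INSR (LMO7, TMCC1 and ICAM4), SESN1 (C6orf55, now VTA1, PHF13 and TFAP4) and SESN3 (CLASP2, ATP5B, now ATP5F1B, and FAM91A1) had no neighbour above 0.799. YPEL3 had 105 genes at r of 0.9 or more and TXNIP 77, against 0 for INSR, IRS1, SESN1 and SESN3.

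Other genes known to be raised by FOXO factors rose more often than they fell. Of 26 such genes, all with a probe, 21 were tested. In the linear term 13 rose and 0 fell (61.9% rose), beside 26% rising and 21.7% falling among all probes. Not every listed gene stood above the 0 h array. Against it KLF2 was at −0.50 log2 units at 3 h and −0.98 at 45 h, and GADD45A at −0.73 and −0.31. Neither passed the linear threshold, with linear changes of −0.17 ± 0.20 for KLF2 and 0.37 ± 0.15 for GADD45A. Of the 21, 15 rose and 0 fell at an unadjusted p under 0.05 in limma, beside 29.3% and 24.3% of all probes. The median linear change was 0.57 log2 units, and 0.06 over all 13108 genes tested. The largest rise was that of PIK3IP1, an inhibitor of PI3K listed as MGC17330, with 2.42 ± 0.27 log2 units (adjusted p = 4.88e-07). It was followed by MXI1 (1.40 ± 0.17), PDK4 (1.26 ± 0.27), which turns down pyruvate oxidation, and GABARAPL1 (1.24 ± 0.16), an autophagy gene, named here after their values were seen. BCL2L11 (−0.06 ± 0.19) and BBC3 (−0.08 ± 0.24), which promote apoptosis, did not pass, while TNFSF10, a death ligand, rose by 0.90 ± 0.10. BBC3 was detected on 4 arrays only, with a mean value of 5.88, so its course says little. FASLG, SEPP1, PCK1, G6PC and IL7R were detected on 0 arrays. With the step between 21 and 24 h 4 of the 21 rose, beside 10% of all probes. When the 12 h set was a factor 0 rose or fell by limma at an adjusted p under 0.05, and 6 rose and 0 fell at an unadjusted p under 0.05, beside 7.67% and 6.99% of all probes.

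**Figure D5:**
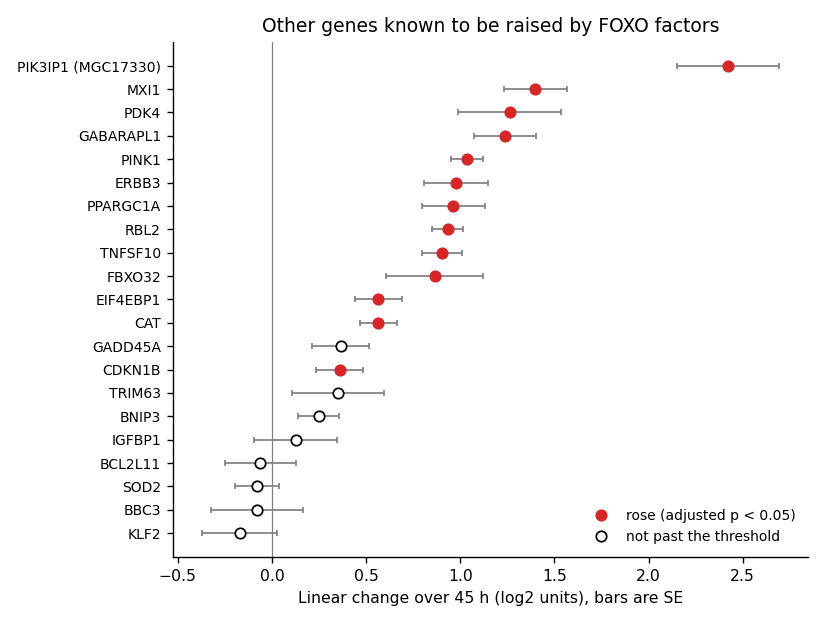
The linear change over 45 h in log2 units (x axis, bars are SE) is drawn for the 21 tested genes of the FOXO-activated list, with filled points for the 13 that rose and open points for those not past the threshold. MGC17330, the file's name for PIK3IP1, stands apart at 2.42, and the open points lie between −0.17 and 0.37.

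The FOXO genes were measured too. FOXO4, listed as MLLT7, rose by 1.77 ± 0.17 log2 units (adjusted p = 6.01e-08 by limma), FOXO3 by 0.64 ± 0.09 and FOXO1 by 0.45 ± 0.11. Against the 0 h array FOXO4 was at −0.50 log2 units at 3 h and 1.25 at 45 h. These changes, like those of the lists below, are from the cubic course. They are not given with the step or the 12 h set as a factor, under which fewer of the 10 genes and of the FOXO-activated list rose. Of 17 FOXO factors and regulators, 6 rose (35.3%) and 4 fell (23.5%), beside 27% and 22% of all genes tested, with a median of −0.05. The largest fall was that of SFN, a 14-3-3 protein, with −1.14 ± 0.10 (adjusted p = 1.66e-08).

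Upstream of FOXO the directions were mixed. Of 18 tested ligands, receptors and adaptors of insulin and IGF signalling, 4 rose (22.2%) and 5 fell (27.8%), beside the same 27% and 22% of all genes, with a median of 0.08. The genes that fell include INS (−0.56 ± 0.22, adjusted p = 0.0458 by limma), whose probe was detected on 5 arrays only, with a mean value of 5.99. Its dependence on time did not pass (adjusted p = 0.127 by limma). GRB10, an adaptor that restrains the receptor, had the largest rise (0.82 ± 0.19, adjusted p = 0.00109), and GRB14, of the same family, the largest fall (−1.08 ± 0.25, adjusted p = 0.00141). IGF1R was detected on 2 arrays and was not tested. Of 33 genes of the PI3K, AKT and mTOR core, 9 rose (27.3%) and 6 fell (18.2%), shares close to those of all genes. TSC1 rose the most (0.74 ± 0.09), AKT1S1 fell the most (−1.29 ± 0.16), and AKT1 fell by 0.91 ± 0.09.

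Among paralogs and partners of the 10 genes, 7 of 17 rose (41.2%) and 2 fell (11.8%), beside 27% and 22% of all genes tested. The YPEL family rose beyond YPEL3, with YPEL2 at 1.94 ± 0.17 log2 units (adjusted p = 1.57e-08), the largest rise of that list, YPEL5 at 1.16 ± 0.11 and YPEL1 at 0.78 ± 0.25, while YPEL4 was detected on 0 arrays. For TXNIP, whose promoter holds the CACGAG elements printed above, MLX rose by 0.66 ± 0.14, MLXIPL fell by 1.33 ± 0.21 (adjusted p = 2.37e-05), the largest fall of the list, and MLXIP was detected on 0 arrays. TXN, the thioredoxin that TXNIP binds, fell by 0.17 ± 0.06. CCNG1, the paralog of CCNG2, rose by 0.27 ± 0.09, and CITED4 had 0.27 ± 0.22, which did not pass.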

How the data were processed

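SUM225 cells in 1 µM CP724,714 were measured at 16 time points, and samples were grouped by the time in their labels. The deposited table holds linear signal intensity per probe and array, as the authors gave it before any normalization and with no background subtracted. It also holds the deposited detection p-value of each probe and array. Scanning software and genome build were not given in the sources used here. The table had 0 unused sample columns.

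Signals were processed with neqc of limma 3.58.1 in R 4.3.3 (normexp background from detection p-values, offset 16, quantile normalization, log2). For the dim probes of INSR and IRS1 the background correction enlarged the changes, and a larger offset reduced them. The 16110 probes detected (p under 0.05) on 3 or more arrays were tested. A cubic in hours was fitted with lmFit and eBayes (intensity trend). Tests were two-sided and adjusted by Benjamini-Hochberg over all probes tested, at 0.05. With no replicates, errors came from deviations around the fitted course, which include true changes that a cubic cannot follow. The number of arrays limits the precision. Pairs of genes were tested by permutation of hours with 100000 resamples in Python 3.11.15. A fold of 1.7 was counted without a test. Fits were tested on simulated data.

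Of several probes of a gene, the brightest stood for it. The genes named were the 10 members, the largest rise and fall of each list, and the 3 genes most like each member by Pearson r, and further list genes were named after their values were seen. The members and lists were chosen with earlier results of these data known. A marker and a gene most like a member are not reported here. Symbols matched RefSeq for 91.0%, and promoter windows came from RefSeq GRCh38.p14. Alternatives were no background correction, an offset of 50, median scaling, cyclic loess, other detection filters, a step between 21 and 24 h, the 12 h set as a factor with a straight line, array weights, a straight line, a spline with 4 degrees of freedom, 2-fold, another reference, and each array left out. The alternatives for the FOXO-activated list and IRS1 at its bound were chosen after seeing the data.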

Additional observations from a re-analysis of the deposited data

How the results depend on the processing

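No background correction, an offset of 50, median scaling and cyclic loess each gave 6 rising, 1 falling and 4 curved genes and 6 to 7 time-dependent ones, and kept the directions of BCL6, CITED2, TXNIP and YPEL3. With a step between 21 and 24 h, the rising count went from 6 to 2 and the falling count from 1 to 0, the FOXO-activated list from 13 rising genes to 4, IRS2 minus IRS1 to 1.09 and INSR minus IRS1 to 0.90, both no longer past the threshold. The step turned the direction of CCNG2 (−0.10), INSR (−0.088), IRS1 (0.11), SESN3 (−0.38) and SESN3 minus SESN1 (−0.24). With the 12 h set as a factor on a linear course, the rising and falling counts and the FOXO-activated list were 0, IRS2 minus IRS1 was 2.72 and INSR minus IRS1 3.23, both no longer past the threshold, and INSR (−0.002384), IRS2 (−0.52), SESN1 (0.005291) and INSR minus IRS2 (0.52) turned direction. Requiring detection on all 16 arrays removed IRS1, so that 0 genes fell. Array weights left 2 of 4 genes that departed from a straight line. Without background correction 0 genes were 1.7-fold below 0 h at 45 h, and INSR minus IRS2 was −0.61 and past the threshold, as it was with an offset of 50 (−0.49). Leaving out each array in turn gave 0 to 1 falling genes (0 without the 0 h array), 5 to 7 rising genes, −0.63 to −0.23 for INSR minus IRS2 (past the threshold without the 45 h array), and 0.20 to 0.40 for SESN3 minus SESN1 (past it without the 0 h array). SESN1 ranged from −0.11 to 0.069 and turned positive without the 3 h array. The cause of these changes was not tested. No time point held more than 1 array, so replicates could not be compared, and the only pairing was of genes within an array.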
